A study of Sus scrofa with 4 samples.

Results

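The integrin subunits described here are 10 protein-coding genes, of which ITGA1, ITGA2, ITGA3, ITGA5, ITGA6, ITGA7, ITGA11 and ITGAV encode alpha chains and ITGB1 and ITGB5 encode beta chains. They were chosen by gene symbol, with earlier results of these data known. They are 10 of the 16192 protein-coding genes with deposited values, and 10 of the 24 integrin subunit genes among these (16 alpha and 8 beta). All 10 were found in each of the 4 libraries. Genes were called reliably expressed, by the definition in the methods of the study, when their level reached an FPKM of 1 in at least 3 of the 4 libraries. By this definition 7 of the 10 subunits were reliably expressed, as were 9191 of all protein-coding genes, and ITGA1, ITGA2 and ITGA3 were not.

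The cells were subcutaneous preadipocytes of 3 male Chinese Erhualian piglets, 5 days old, which were isolated by collagenase, grown to confluence and differentiated in culture. D0 was the confluent culture before induction. D2 followed 2 days in growth medium with serum and a cocktail of dexamethasone (a glucocorticoid), 3-isobutyl-1-methylxanthine (a phosphodiesterase inhibitor) and insulin. D4 followed 2 further days with insulin alone, and D8 followed 4 more days in growth medium without hormones. No time-matched culture without hormones was analysed here, so that induction and days in culture cannot be told apart. At each stage, equal amounts of RNA of the 3 piglets were pooled into 1 strand-specific library from which ribosomal RNA had been removed. Each stage is therefore also 1 library, without replicates, and what belongs to the stage cannot be told apart from what belongs to the library. No test between stages was possible. The 95% intervals below are exact intervals on recovered fragment numbers and cover counting error only.

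Integrins are cell-surface receptors made of 1 alpha and 1 beta chain, which bind matrix proteins outside the cell and are coupled to the actin cytoskeleton inside it by talin, kindlin and other adaptors. The beta1 chain (ITGB1) pairs with most of the alpha chains studied here, whereas beta5 (ITGB5) pairs with alphaV. Alpha chains are commonly grouped by their ligands, namely laminins (alpha3, alpha6, alpha7), collagens (alpha1, alpha2, alpha11) and proteins with an RGD motif such as fibronectin and vitronectin (alpha5, alphaV). In adipose tissue, preadipocytes lie in a fibrillar matrix and mature adipocytes are each surrounded by a basement membrane that contains laminins and type IV collagen.

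The libraries held between 54128151 and 75387428 fragments. Levels are given as FPKM, that is fragments scaled by the length of the transcript and by the total of the library, so that levels can be set side by side between genes. The summed FPKM of 8 adipocyte markers went from 122 at D0 to 491 at D2, 1747 at D4 and 2076 at D8. Of these markers, FABP4 (77.5, 201, 853 and 1557 FPKM) and CIDEC were highest at D8. In contrast, ADIPOQ, PLIN1, PPARG, CEBPA, LPL and LIPE were highest at D4. PLIN1, which encodes the lipid droplet coat protein perilipin 1, was at 2.28, 36.1, 215 and 90.3 FPKM. Markers of 4 other cell types were low. The sum of 5 leukocyte markers was 0.667, 2.04, 1.49 and 2.65 FPKM at D0, D2, D4 and D8. Its largest part was CD163 (0.270, 1.42, 1.01 and 1.38 FPKM), AIF1 reached 1.05 FPKM at D8, and PTPRC stayed at or below 0.0712. The sum of 5 endothelial markers was 1.16 to 2.65 FPKM. Nearly all of it came from PECAM1 (2.56, 1.14, 1.70 and 1.87 FPKM), with CDH5 at or below 0.0450. The sum of 3 Schwann cell markers was 0.562 to 1.35 FPKM, and the skeletal muscle marker MYOG stayed at or below 0.0269 FPKM. The sum of 3 epithelial markers was 45.1, 109, 181 and 276 FPKM at D0, D2, D4 and D8, nearly all of it from KRT5, with EPCAM and CDH1 below 1 FPKM in every library. The sum of 5 smooth muscle and pericyte markers was 3347, 363, 231 and 2801 FPKM at D0, D2, D4 and D8, nearly all of it from ACTA2 and DES, and RGS5 and MYH11 stayed below 1 FPKM. In pooled cultures, fewer cells of a type and less RNA per cell cannot be told apart.

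ITGB1 had the highest level of the 10 subunits in every library, and its level was lower at D2, D4 and D8 than at D0. In contrast, ITGA7 was 21.9-fold higher at D4 than at D0 and moved from the fifth place among the 10 subunits to the second. The highest level was reached at D0 by ITGA3, ITGA5, ITGA11 and ITGB1, at D4 by ITGA6, ITGA7, ITGAV and ITGB5, and at D8 by ITGA1 and ITGA2, and no subunit was highest at D2. With either of the 2 other scalings of the libraries described further on, the highest level of ITGA5 was that at D8 instead, and the stages of the other 9 stayed as given. Only 3 pairs of neighbours in the order of levels had overlapping counting intervals, which were ITGA11 and ITGA6 at D0, ITGB5 and ITGA5 at D2, and ITGA7 and ITGAV at D8.

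**Figure D1:**
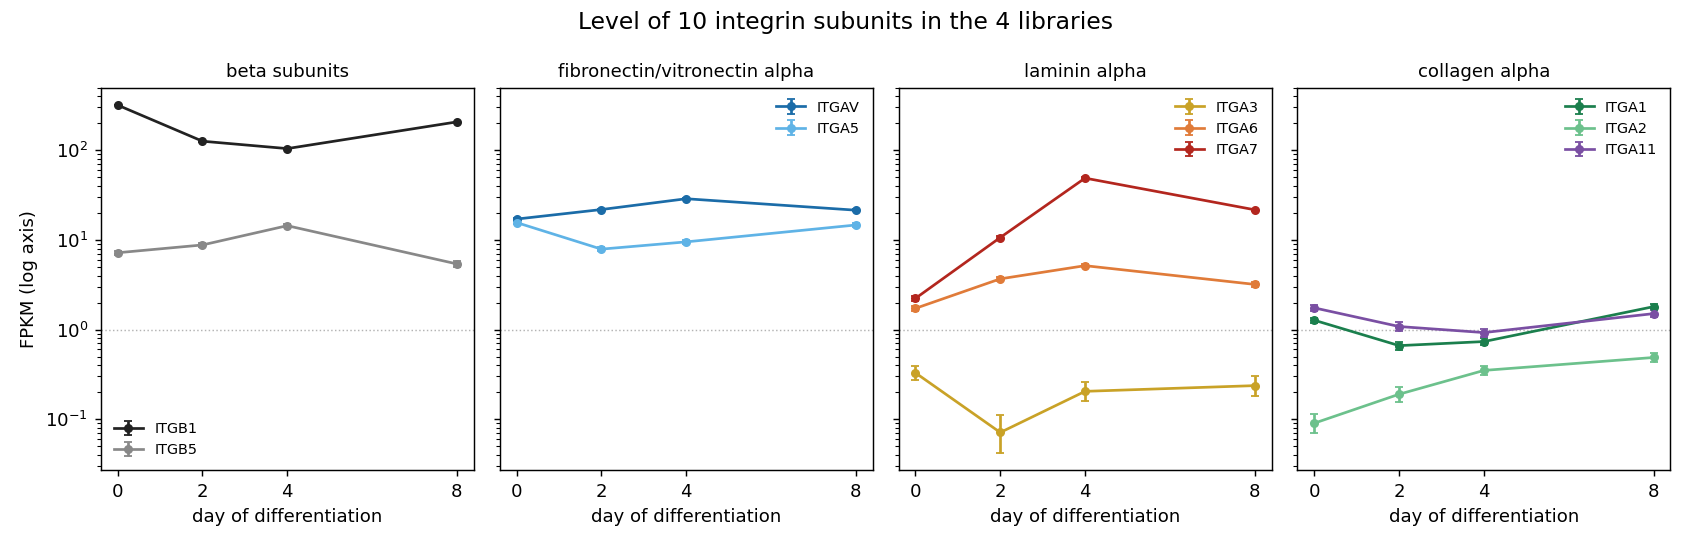
FPKM (log axis) of the 10 integrin subunits against the day of differentiation, in 4 panels by kind of chain. Points are the 4 libraries, bars are 95% counting intervals, and the dotted line marks an FPKM of 1. ITGB1 lies above all others throughout, ITGA7 runs from 2.23 to 48.9 FPKM between D0 and D4, and ITGA2 and ITGA3 lie below the dotted line in every library.

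ITGB1 (chr10:56078393-56130608, minus strand, on the Sscrofa11.1 assembly as for all positions here) encodes the beta1 chain, the common partner in collagen, laminin and fibronectin receptors. Its level was 319 FPKM at D0, 126 FPKM at D2, 104 FPKM at D4 and 207 FPKM at D8, from 187419, 54095, 60520 and 87435 fragments. The level was thus lowest at D4 and lay between those of D2 and D0 at D8. Compared with D0, the log2 ratio was -1.34 (95% interval -1.35 to -1.32) at D2, -1.61 (-1.62 to -1.60) at D4, which is 3.05-fold lower, and -0.62 (-0.63 to -0.61) at D8. From D4 to D8 it was 1.98-fold higher, just short of the 2-fold that is called a difference here. The stages fell in the same order, D0, D8, D2 and D4, for the sum of the smooth muscle and pericyte markers given above, which is mostly ACTA2. The other markers of that sum (DES, MYH11, CSPG4 and RGS5) did not have this order. The sum of 6 mesenchymal progenitor markers (3148, 1198, 1035 and 2051 FPKM at D0, D2, D4 and D8) had this order too through VIM, whereas PDGFRA (75.8, 189, 149 and 60.8 FPKM) and PDGFRB (12.4, 20.9, 28.8 and 12.0 FPKM) were above D0 at D2 and D4, and THY1 went from 105 to 101, 88.0 and 78.8 FPKM. The part of these cells in the level of ITGB1 was not tested.

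ITGB5 (chr13:135468111-135587483, plus strand) encodes the beta5 chain of the vitronectin receptor alphaVbeta5. Its level was 7.19 FPKM at D0, 8.79 FPKM at D2, 14.4 FPKM at D4 and 5.40 FPKM at D8. It was highest at D4 and lowest at D8. The log2 ratio was 1.0 (0.91 to 1.09) between D4 and D0, a 2.0-fold difference that just passed the threshold, and -1.41 (-1.53 to -1.31) between D8 and D4. Its partner ITGAV (chr15:91604666-91711843, plus strand) had levels of 17.1, 21.8, 28.8 and 21.5 FPKM. The level of ITGAV was thus also highest at D4, but lowest at D0. Its log2 ratio to D0 was 0.35 (0.31 to 0.40), 0.75 (0.72 to 0.79) and 0.33 (0.29 to 0.37) at D2, D4 and D8, and no comparison of ITGAV reached 2-fold.

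ITGA5 (chr5:19587361-19610580, minus strand), whose alpha5 chain forms the classical fibronectin receptor with beta1, had a different course. Its level was 15.6 FPKM at D0, 7.89 FPKM at D2, 9.51 FPKM at D4 and 14.7 FPKM at D8. The levels of D0 and D8 were close, and those of D2 and D4 lay below them. The log2 ratio between D2 and D0 was -0.98 (-1.09 to -0.89), or 1.98-fold lower, which fell just short of the threshold. Between D8 and D0 the log2 ratio was -0.09 (-0.17 to -0.01), and it turned to 0.06 and 0.02 with the 2 other scalings, the only comparison of the 10 subunits whose direction changed.

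ITGA7 (chr5:21126565-21150875, minus strand) encodes the alpha7 chain, a laminin receptor best known from skeletal and smooth muscle. Its level was 2.23 FPKM at D0, 10.6 FPKM at D2, 48.9 FPKM at D4 and 21.7 FPKM at D8, from 736, 2561, 15924 and 5140 fragments. Each of the later libraries was well above that of D0, and D4 stood highest. The log2 ratio was 2.25 (2.14 to 2.37) between D2 and D0 and again 2.20 (2.14 to 2.26) between D4 and D2, and it was -1.17 (-1.22 to -1.13) between D8 and D4. At D8 the level was still 9.73-fold that of D0. MYOG, the skeletal muscle marker with a deposited value, was at 0 FPKM in 3 libraries and at 0.0269 FPKM at D2, and the smooth muscle and pericyte sum, which is mostly ACTA2, was lowest at D4. The pericyte marker RGS5, below 1 FPKM throughout, was at 0.156, 0.142, 0.742 and 0.352 FPKM at D0, D2, D4 and D8, and thus highest at D4. CSPG4, from the same marker list, was at 3.85, 0.338, 0.516 and 2.72 FPKM. Like CSPG4, the other markers of this list (MYH11, ACTA2 and DES) were highest at D0. The part of such cells in the level of ITGA7 was not tested.

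ITGA6 (chr15:78504108-78591779, plus strand) encodes the alpha6 chain of the laminin receptors alpha6beta1 and alpha6beta4. It had levels of 1.73 FPKM at D0, 3.68 FPKM at D2, 5.16 FPKM at D4 and 3.19 FPKM at D8. As with ITGA7 the level was highest at D4 and lowest at D0, but that of D2 lay above that of D8, and the range was smaller. The log2 ratio to D0 was 1.09 (0.96 to 1.23) at D2, 1.58 (1.46 to 1.70) at D4 and 0.88 (0.75 to 1.03) at D8. The lower bound of the D2 interval lies below the threshold of 2-fold.

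ITGA3 (chr12:26234769-26269327, plus strand), whose alpha3 chain binds laminins of epithelial basement membranes, was the lowest of the 10 subunits at D2, D4 and D8. It had 0.329 FPKM at D0, 0.0712 FPKM at D2, 0.205 FPKM at D4 and 0.237 FPKM at D8, from 114, 18, 70 and 59 fragments. The plain ratio of D2 to D0 was 4.62-fold lower, with a log2 interval from -3.01 to -1.48, and the log2 ratio after the pseudocount of 0.01 was -2.06. Between D8 and D4 the log2 interval ran from -0.31 to 0.73, so that a difference was not detectable at this depth.

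ITGA1 and ITGA2, both on the plus strand of chromosome 16 and 26.3 kb apart, encode the alpha chains of collagen receptors. ITGA1 (chr16:32130265-32309917), whose alpha1 chain prefers type IV collagen, had levels of 1.27, 0.662, 0.735 and 1.80 FPKM at D0, D2, D4 and D8. ITGA2 (chr16:32336240-32440311), whose alpha2 chain prefers fibrillar collagen, had levels of 0.0905, 0.190, 0.351 and 0.489 FPKM, from 73, 112, 279 and 283 fragments. ITGA1 was thus lower at D2 and D4 than at the other stages, whereas ITGA2 was higher at each later stage and stayed below 1 FPKM throughout. The stages of ITGA2 fell in the same order as the epithelial sum given above, which is nearly all KRT5, and as the adipocyte sum. The epithelial markers EPCAM (highest at D2) and CDH1 (highest at D4) did not have this order. The part of such cells in the level of ITGA2 was not tested. The log2 ratio between D8 and D4 was 1.28 (1.14 to 1.44) for ITGA1. Between D8 and D0 it was 2.31 for ITGA2, with a plain ratio of 5.40-fold and a log2 interval from 2.06 to 2.82.

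The values of both genes are uncertain because other genes share their positions. ITGA1 holds within its span nearly all of PELO (a ribosome rescue factor) on the same strand, with 15850 shared bases and 14.7, 12.6, 9.0 and 15.2 FPKM, and 10408 bases of the antisense lncRNA LOC106506482. The level of PELO was above that of ITGA1 in every library. ITGA2 shares 12529 bases with MOCS2 (molybdenum cofactor synthesis) on the other strand, at 3.09 to 4.79 FPKM. Whether strand was used in counting is not given in the sources used here, and the share of fragments that these genes exchanged was not tested. ITGAV shares 885 bases with a pseudogene on the other strand, LOC110256917, which stayed at or below 0.0639 FPKM.

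ITGA11 (chr1:166186601-166311046, minus strand), which encodes the alpha11 chain of a receptor for fibrillar collagen on fibroblasts and other mesenchymal cells, had levels of 1.75 FPKM at D0, 1.08 FPKM at D2, 0.926 FPKM at D4 and 1.51 FPKM at D8. It was the reliably expressed member with 1 library under the limit, that of D4. The log2 ratio to D0 was -0.69 (-0.89 to -0.50) at D2, -0.91 (-1.10 to -0.73) at D4 and -0.21 (-0.39 to -0.04) at D8, and no comparison reached 2-fold.

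**Figure D2:**
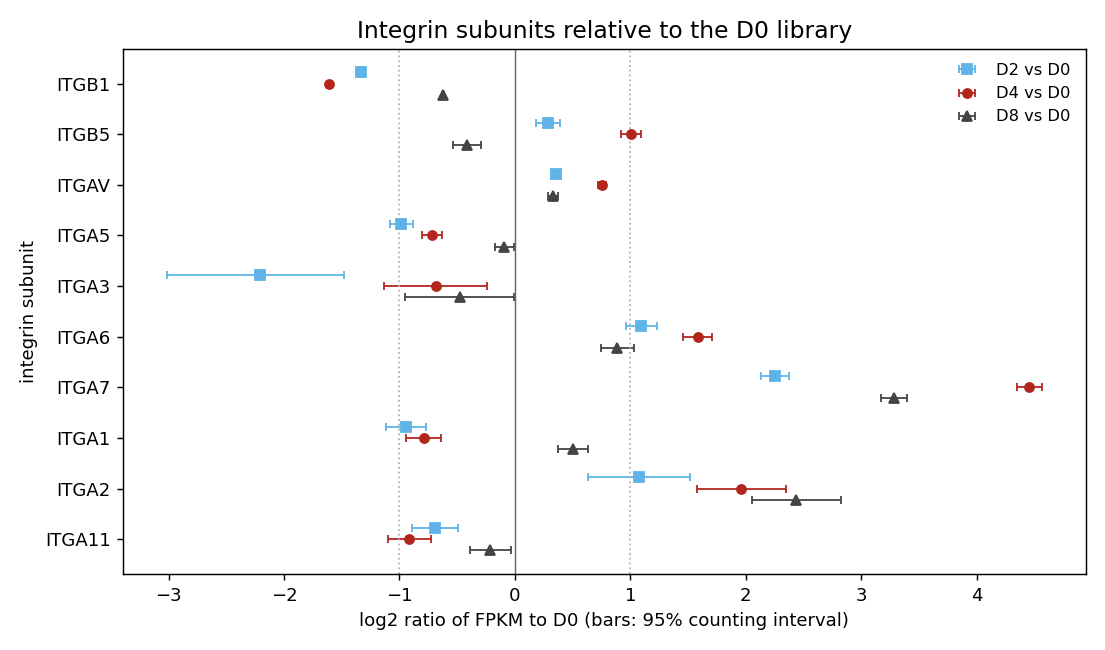
Log2 ratio of FPKM to D0, without pseudocount, for each of the 10 subunits at D2 (squares), D4 (circles) and D8 (triangles), with 95% counting intervals as bars and dotted lines at 2-fold. All 3 comparisons share the D0 library. ITGA7 lies farthest to the right with 4.45 at D4, ITGB1 lies left of 0 at all stages, and ITGA3 has the widest intervals.

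The 5 comparisons of the study were then counted over the 7 reliably expressed subunits, with a log2 ratio of at least 1 in size, on log2(FPKM + 0.01), as the call. D2 vs D0 had 2 subunits higher (ITGA6 and ITGA7), against 6.67% of the 9191 reliably expressed mRNAs, and 1 lower (ITGB1), against 10.1% of the mRNAs. The median log2 ratio of the 7 was 0.29, beside -0.03 for all reliably expressed mRNAs. The subunits thus went both ways at D2, with ITGB1 and the laminin receptor chains ITGA6 and ITGA7 in opposite directions. ITGA3, the laminin receptor chain that was not reliably expressed, was lower at D2, as ITGB1 was.

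D4 vs D2 had 1 subunit higher (ITGA7) and 0 lower, where 4.24% of the mRNAs were higher and 0.838% lower. The median log2 ratio of the 7 subunits was 0.40, beside 0.09 for all mRNAs. D4 vs D0 had 3 subunits higher (ITGA6, ITGA7 and ITGB5) and 1 lower (ITGB1), where 10.4% of the mRNAs were higher and 8.81% lower. Here the median was 0.75 for the subunits and 0.06 for all mRNAs. ITGB5 dropped out of the higher ones with the median-ratio scaling described in the next paragraph, at 0.95, where 9.57% of the mRNAs were higher. With so few subunits, 1 gene moves each of these shares by a large step.

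D8 vs D4 had 0 subunits higher and 2 lower (ITGA7 and ITGB5), where 4.43% of the mRNAs were higher and 10.1% lower, and the medians were -0.42 and -0.21. This split depended on the scaling of the libraries. When the libraries were scaled by the median ratio of the reliably expressed mRNAs, the median of all mRNAs moved from -0.21 to 0.00 in this comparison and from -0.18 to -0.03 in D8 vs D0. The calls of D8 vs D4 were then 1 higher (ITGB1, log2 ratio 1.20) and 1 lower (ITGB5, -1.20), with ITGA7 at -0.96, beside 6.43% of the mRNAs higher and 5.94% lower. When the libraries were scaled by the fragments on protein-coding genes, ITGB1 was also called higher, at 1.04, and ITGA7 and ITGB5 stayed lower. Of the mRNAs, 4.83% were then higher and 8.79% lower.

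D8 vs D0 had 1 subunit higher (ITGA7) and 0 lower, where 3.60% of the mRNAs were higher and 3.68% lower. The median log2 ratio of the 7 subunits was -0.09, beside -0.18 for all mRNAs. ITGA6 was at 0.88 as deposited and at 1.04 with the median-ratio scaling, which brought the count of higher subunits to 2, beside 4.41% of the mRNAs. The protein-coding scaling moved the median of all mRNAs in D2 vs D0 from -0.03 to 0.13. The subunits called there stayed the same in number, with 2 higher and 1 lower, beside 9.12% and 8.27% of the mRNAs.

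Without the filter on low levels, all 10 subunits could be counted beside all 16192 mRNAs. D2 vs D0 then had 2 higher and 2 lower (12.6% and 17.0% of all mRNAs), with ITGA3 joining ITGB1. D4 vs D2 had 2 higher and 0 lower (12.4% and 6.26%), with ITGA3 joining ITGA7. D8 vs D4 had 1 higher, ITGA1, and 2 lower (11.0% and 16.7%). D4 vs D0 had 4 higher and 1 lower (17.6% and 14.7%), and D8 vs D0 had 2 higher and 0 lower (10.5% and 11.2%), with ITGA2 as the added subunit in both.

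The make-up of the integrin mRNA was then described over all 24 subunit genes by summing FPKM. The 16 alpha chains summed to 90.4 FPKM at D0, 59.6 FPKM at D2, 107 FPKM at D4 and 96.8 FPKM at D8. The 8 beta chains summed to 333, 138, 126 and 219 FPKM. The sum of the beta chains was thus above that of the alpha chains in every library, but by a ratio that went from 3.68 at D0 to 2.32, 1.17 and 2.26 at D2, D4 and D8. ITGB1 made up between 82.8% (D4) and 95.7% (D0) of the beta sum.

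Of the alpha chains, 12 can pair with beta1, and the ratio of ITGB1 to their sum was 3.58, 2.20, 0.988 and 2.19 at D0, D2, D4 and D8. At D4 the level of ITGB1 mRNA was thus about that of its possible partners together. Among the members, the laminin group (ITGA3, ITGA6 and ITGA7) summed to 4.28, 14.4, 54.3 and 25.1 FPKM, of which ITGA7 was the largest part in every library. The RGD group (ITGA5 and ITGAV) stayed between 29.7 and 38.3 FPKM, and the collagen group (ITGA1, ITGA2 and ITGA11) between 1.93 and 3.80 FPKM. The RGD sum leaves out ITGA8, which is no member and was at 46.1, 6.90, 5.85 and 27.4 FPKM at D0, D2, D4 and D8. Its narrow range thus holds for ITGA5 and ITGAV only, not for all RGD-type chains. The ratios of these sums within a library do not depend on the scaling between libraries.

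ITGA7 made up 2.47%, 17.8%, 45.5% and 22.4% of the alpha sum at D0, D2, D4 and D8. ITGA8, an alpha chain of the RGD type that is no member of the group above and is known from mesenchymal and smooth muscle cells, made up 51.0%, 11.6%, 5.44% and 28.3%. The largest share of the alpha sum was thus held by ITGA8 at D0 and D8, by ITGAV at D2 (36.6%) and by ITGA7 at D4. The 10 members together held 0.271%, 0.127%, 0.135% and 0.197% of all fragments.

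**Figure D3:**
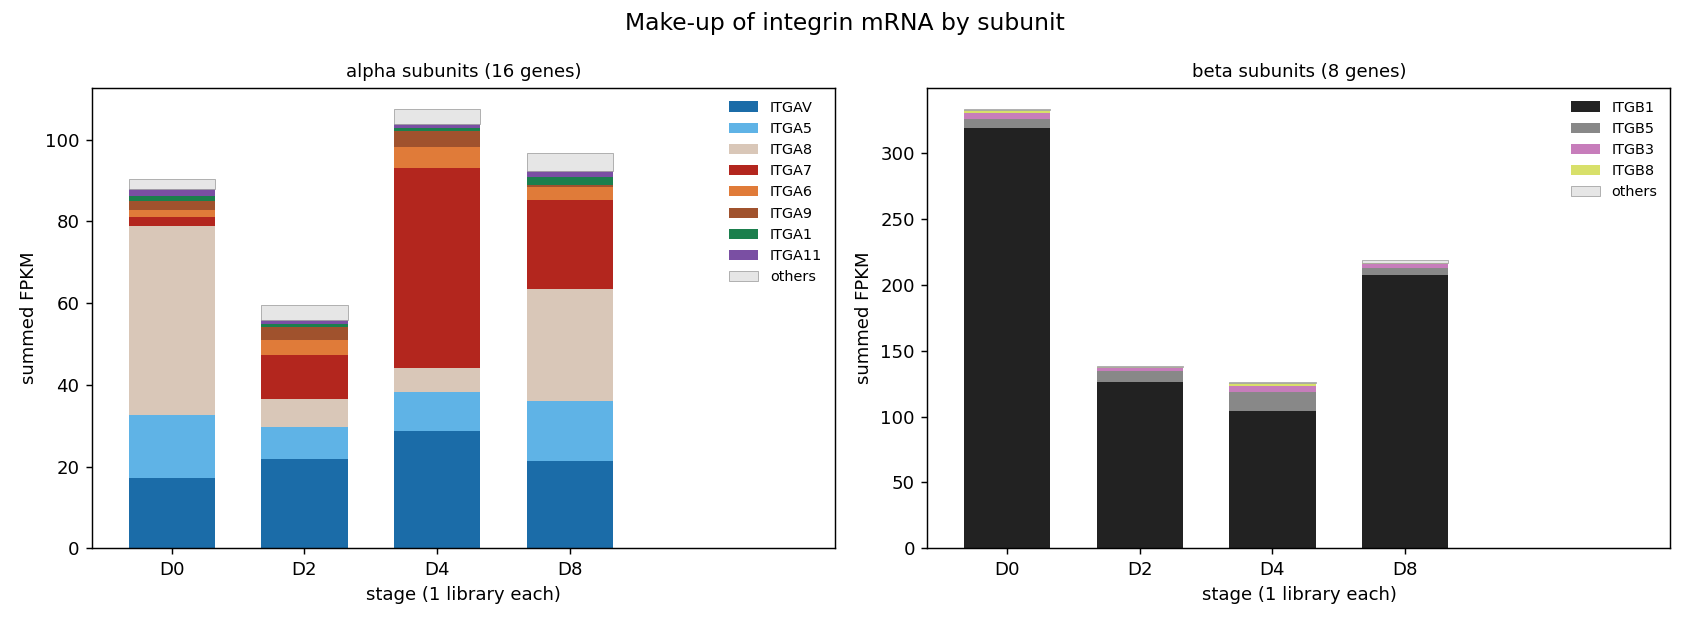
Summed FPKM of the 16 alpha chains (left) and the 8 beta chains (right) in each of the 4 libraries, stacked by subunit, on linear axes that start at 0. The ITGA8 segment is largest at D0 (51.0% of the alpha sum) and the ITGA7 segment is largest at D4 (45.5%), and ITGB1 fills most of each beta bar.

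Of the other 16 subunits on the list, 14 had values as protein-coding genes and 5 of these were reliably expressed. ITGA8 was at 46.1 FPKM at D0, 6.90 FPKM at D2, 5.85 FPKM at D4 and 27.4 FPKM at D8, with a log2 ratio of -2.74 (-2.80 to -2.68) between D2 and D0 and of 2.23 (2.17 to 2.29) between D8 and D4. Its stages fell in the order D0, D8, D2 and D4, as those of ITGB1 and of the smooth muscle and pericyte sum did. That sum has this order through ACTA2. DES and MYH11 were lower at D8 than at D2, CSPG4 was lowest at D2, and RGS5 was highest at D4. The part of such cells in the level of ITGA8 was not tested. ITGA9, a receptor chain for tenascin and other ligands, was at 2.21, 3.31, 3.92 and 0.523 FPKM, and thus lowest at D8.

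Among the other beta chains, ITGB3, which pairs with alphaV as ITGB5 does, was at 4.42 FPKM at D0, 1.93 FPKM at D2, 4.64 FPKM at D4 and 3.03 FPKM at D8. It was lowest at D2, where the level of ITGB5 was above that of D0. ITGB8, a further alphaV partner that takes part in the activation of latent TGF-beta, was at 2.16, 0.848, 1.69 and 1.03 FPKM. ITGAE, the alphaE chain of intraepithelial lymphocytes, was between 0.976 and 1.51 FPKM, from 107 to 119 fragments.

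The other 9 were not reliably expressed. ITGA4 was at 0.527, 0.872, 1.17 and 1.52 FPKM at D0, D2, D4 and D8, and ITGB6, the beta6 chain of epithelial cells, was at 0.337, 0.329, 0.673 and 2.14 FPKM. Both had their highest level at D8. ITGB4, which pairs with alpha6, stayed between 0.0840 and 0.348 FPKM, and the leukocyte or platelet chains ITGAL, ITGB2, ITGA2B, ITGAD and ITGB7 and the collagen receptor chain ITGA10 stayed below 0.8 FPKM in every library. Of the 5 reliably expressed ones, 0 were called higher and 3 lower in D2 vs D0 (6.67% and 10.1% of all reliably expressed mRNAs), 1 and 0 in D4 vs D2 (4.24% and 0.838%), and 1 and 1 in D8 vs D4 (4.43% and 10.1%). The counts were 0 and 1 in D4 vs D0 (10.4% and 8.81%) and 0 and 2 in D8 vs D0 (3.60% and 3.68%). With either of the 2 other scalings 1 was lower in D8 vs D0, beside 2.26% (median-ratio) and 2.52% (protein-coding) of the mRNAs.

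The ligands of integrins were described from a list of 33 gene symbols, of which 29 had values and 24 were reliably expressed. CCN1 and CCN2, among those without values, are second names of CYR61 and CTGF, which had values. D2 vs D0 had 8 higher and 6 lower, where 6.67% of all reliably expressed mRNAs were higher and 10.1% lower, with a median log2 ratio of 0.34 for the ligands. With the median-ratio scaling 9 were higher and 6 lower, beside 7.09% and 9.56% of the mRNAs. With the protein-coding scaling 9 were higher and 4 lower, beside 9.12% and 8.27%. D4 vs D0 had 7 higher and 7 lower, where 10.4% and 8.81% of the mRNAs were, with a median of 0.52. The 7 higher became 8 with the protein-coding scaling, beside 11.6% of the mRNAs. LAMA2, the alpha chain of laminin-211, a main ligand of alpha7beta1, was at 4.42 FPKM at D0, 12.5 FPKM at D2, 28.0 FPKM at D4 and 15.5 FPKM at D8. Its stages fell in the same order as those of ITGA7, namely D4, D8, D2 and D0. COL3A1, a chain of type III collagen, had this order too, at 491, 1286, 2058 and 1624 FPKM. The other chains of laminin-211 did not, with LAMB1 at 65.5, 261, 265 and 86.1 FPKM and LAMC1 at 39.4, 78.0, 70.9 and 33.6 FPKM. COL4A1, a chain of type IV collagen, was at 68.8, 332, 373 and 102 FPKM.

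At the other end of the ligand list, THBS1 (thrombospondin 1) was at 1689 FPKM at D0, 191 FPKM at D2, 212 FPKM at D4 and 621 FPKM at D8. CTGF, a matricellular protein that binds integrins, was at 44.5, 2.01, 6.70 and 52.0 FPKM. Both were lowest at D2, as ITGA5 was. FN1 (fibronectin), the ligand of alpha5beta1, was at 162, 202, 229 and 382 FPKM, and thus highest at D8, with a log2 ratio of 1.24 (1.23 to 1.25) to D0. For D4 vs D2 the ligands had 3 higher and 1 lower (4.24% and 0.838% of all mRNAs), for D8 vs D4 6 and 7 (4.43% and 10.1%), and for D8 vs D0 4 and 3 (3.60% and 3.68%). The medians of these were 0.01, -0.39 and -0.00, of which the first turned to -0.08 with both other scalings and the last to 0.15 and 0.10. With the median-ratio scaling the 7 lower of D8 vs D4 became 6, beside 5.94% of all mRNAs. The 4 higher of D8 vs D0 became 5 with it, beside 4.41%.

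The adaptors and membrane partners were described from 38 genes, of which all had values and 29 were reliably expressed. At D2, 27 of the 29 were lower than at D0 as deposited, 13 of them by at least 2-fold, and 1 gene was called higher. Of the 9191 mRNAs, 4778 were lower, 10.1% were lower by at least 2-fold and 6.67% were higher by at least 2-fold. The median log2 ratio of the 29 was -0.93, beside -0.03 for all mRNAs. With the protein-coding scaling 24 were lower, 10 of them by at least 2-fold, and the median was -0.77. Of the 9191 mRNAs, 3824 were then lower, and 8.27% were lower by at least 2-fold. D4 vs D0 had 1 higher and 9 lower (10.4% and 8.81% of all mRNAs), and D4 vs D2 had 0 and 0 (4.24% and 0.838%). Under either of the 2 other scalings D4 vs D2 had 1 lower, beside 1.11% (median-ratio) and 1.13% (protein-coding) of all mRNAs. D8 vs D4 had 3 higher and 1 lower (4.43% and 10.1%). The 3 became 6 with the median-ratio scaling, beside 6.43% of all mRNAs, and 5 with the protein-coding scaling, beside 4.83%. D8 vs D0 had 0 higher and 4 lower (3.60% and 3.68%). The 4 became 2 with either scaling, beside 2.26% (median-ratio) and 2.52% (protein-coding) of all mRNAs. The median of D8 vs D0 was -0.40 as deposited and -0.25 with the median-ratio scaling.

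ILK, a scaffold that links beta tails to parvin and actin, was at 91.1 FPKM at D0, 36.5 FPKM at D2, 41.2 FPKM at D4 and 74.6 FPKM at D8. FERMT2 (kindlin-2), which activates beta1 integrins together with talin, was at 195, 84.1, 125 and 187 FPKM. Both were lowest at D2, and ILK was then 2.50-fold and FERMT2 2.32-fold below D0. TLN1, the common talin of non-muscle cells, was at 35.6, 21.5, 28.5 and 26.6 FPKM, and PTK2 (focal adhesion kinase) stayed between 10.1 and 12.0 FPKM.

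Among the reliably expressed adaptors, the genes that lay farthest below D0, by the mean over the 3 later stages, were TGFB1I1 (Hic-5, a relative of paxillin), at 14.7, 1.14, 1.35 and 8.62 FPKM, and ZYX (zyxin, a protein of focal adhesions and stress fibres), at 9.55, 1.82, 2.50 and 2.97 FPKM. TLN2, the second talin, was at 2.47, 5.02, 6.17 and 2.48 FPKM, and CD81, a tetraspanin, at 29.2, 33.1, 46.4 and 28.8 FPKM, and both were highest at D4. CD151, a tetraspanin that binds laminin receptors and was picked here after its values were seen, was at 225, 68.5, 41.3 and 116 FPKM. CD151 was thus lowest at D4, where ITGA7 and ITGA6 were highest.

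**Figure D4:**
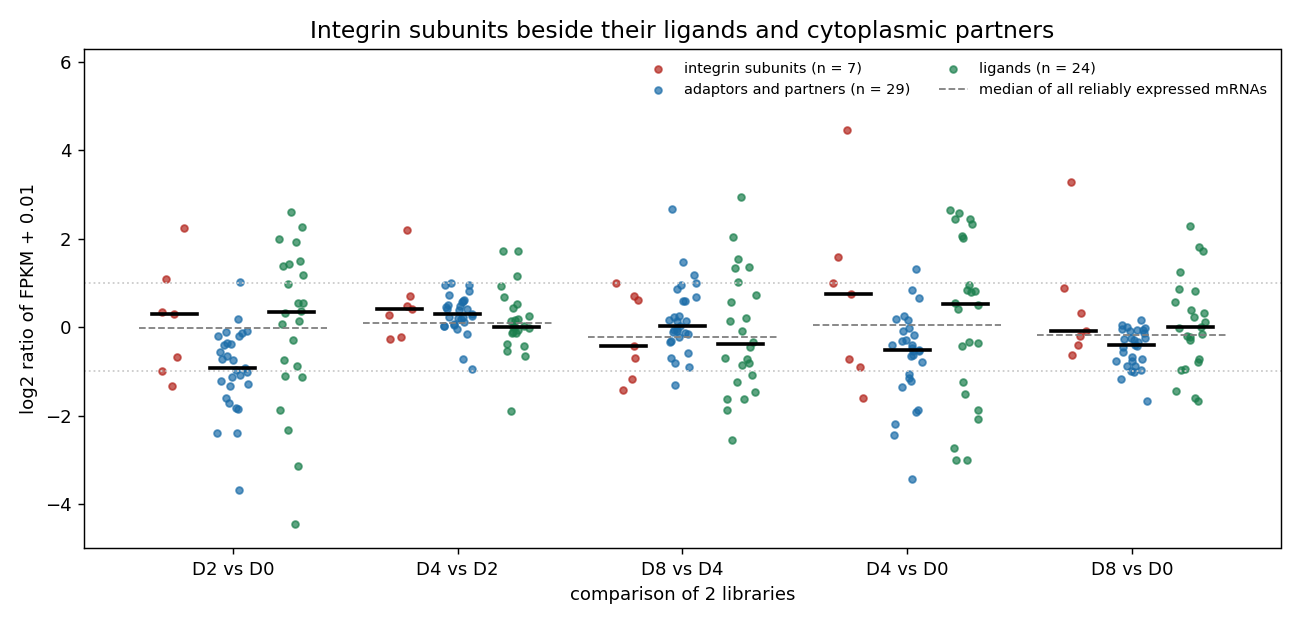
Log2 ratio of FPKM + 0.01 in each of the 5 comparisons for the reliably expressed integrin subunits (7), adaptors and partners (29) and ligands (24), with 1 point per gene, black bars at the list medians and dashed lines at the median of all reliably expressed mRNAs. Most adaptors lie below 0 for D2 vs D0 (median -0.93), while subunits and ligands spread to both sides.

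The mRNAs with the most similar course over the 4 libraries were then looked up for the 3 members with the largest range. Likeness was the Euclidean distance between the 3 log2 ratios to D0, among about 4610 reliably expressed mRNAs with at least 10 FPKM in one library. For ITGA7 these were ACSL1 (acyl-CoA synthetase; distance 0.360), at 10.7, 57.8, 219 and 128 FPKM, COL5A3 (a type V collagen chain; 0.573), at 1.23, 7.42, 37.1 and 11.7 FPKM, and CD36 (a fatty acid transporter; 0.701), at 3.90, 20.5, 63.1 and 54.7 FPKM. As with ITGA7, each had its highest level at D4 and its lowest at D0, which the choice by likeness made nearly certain.

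For ITGA2 the nearest were RPL22L1 (distance 0.117), KRT8 (0.211) and BST2 (0.405), and for ITGA3 they were SMC2 (0.0714), TPX2 (0.137) and MCM5 (0.295). RPL22L1 is a ribosomal protein paralogue, KRT8 a keratin, BST2 an interferon-induced membrane protein, SMC2 a condensin subunit, TPX2 a spindle factor and MCM5 a replication helicase subunit. ITGA2 and ITGA3 rest on 18 to 283 fragments per library, and a course over 4 libraries is matched by many genes.

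Circular RNAs, which arise when a downstream splice site is joined to an upstream one, were matched to the members by position and strand. Of the 8623 circRNAs, 6 lay within 3 member genes (ITGA5, ITGA7 and ITGAV), and the other 7 members had none. ITGA5 had 2 (chr5:19596396-19597172 and chr5:19600415-19601987), each with 8 junction reads at D0 and 0 at D2, D4 and D8. At D0 these were 51.3 SRPBM each (junction reads scaled by the mapped reads of the library), and a true count of 0 allowed up to 21.8, 17.8 and 25.2 SRPBM in the later libraries. CircRNAs were kept only with at least 2 junction reads. A deposited 0 may thus hide a read, and these limits may be too low.

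ITGAV had 3 circRNAs, of which that at chr15:91678147-91684121 was seen in 3 libraries, with 3, 0, 9 and 6 junction reads at D0, D2, D4 and D8. The other 2 had 6 reads at D0 and 3 reads at D4, and that of ITGA7 (chr5:21142631-21142930) had 3 reads at D4. In all, the 6 circRNAs had 25, 0, 15 and 6 junction reads at the 4 stages. All 8623 circRNAs together had 53207, 43989, 51074 and 37480. The share of all circRNAs that were seen in some libraries only is not given here. ITGB1, the member with the most fragments in every library, had no circRNA on its strand. A count of 1 junction read stood for 5.94 to 8.40 SRPBM, depending on the library.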

How the data were processed

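Reads were trimmed by the authors and aligned to Sus scrofa 11.1 (HISAT2 2.0.5, per the submitters' processing notes), and the authors deposited FPKM per gene for each library. CircRNAs came from BWA-MEM and CIRI with at least 2 junction reads, as SRPBM in the same column. The counting program is not given in the sources used here.

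Fragment numbers were recovered from the FPKM values alone. Library totals came from 350 tRNA and miRNA genes whose length is their span, and the smallest whole length that gave whole fragments in the 4 libraries was taken for each gene, so that a number can be a whole fraction of the true one. A length was found for 22934 of 22944 genes, and the recovered fragments made up 98.9% to 99.1% of the totals. The procedure was tested on simulated data. Intervals are exact Poisson for levels and exact conditional binomial for plain FPKM ratios, computed with scipy 1.17.1 at 95%. Log2 ratios are of FPKM + 0.01, and true 0 counts allow up to 3 reads. For circRNAs, where a 0 may hide a read, this limit may be too low.

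With 1 library per stage no test was made. Other pseudocounts, scalings, a call at 1.5-fold and no filter were tried. The members and lists were chosen with earlier results of these data known. Named were all integrin subunits, from the reliably expressed genes of the ligand and adaptor lists the 2 farthest above and the 2 farthest below D0 by the mean log2 ratio plus FN1, TLN1, FERMT2, ILK and PTK2, and the 3 nearest mRNAs for the 3 members with the largest range. CD151, COL3A1, LAMB1 and LAMC1 were named in addition, after their values were seen.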

Additional observations from a re-analysis of the deposited data

How the results depend on the processing

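No paired analysis was possible because each stage had 1 library, and no library could be left out for the same reason. D4 vs D0 had 2 subunits higher in place of 3 with a pseudocount of 0.1, with a pseudocount of 1 and with the median-ratio scaling, and 4 without the filter or with a ratio of 1.5 as the call. With a pseudocount of 1, D2 vs D0 had 1 higher in place of 2. With the median-ratio scaling, D8 vs D0 had 2 higher, D8 vs D4 had 1 higher and 1 lower with a median log2 ratio of -0.21, and the median of D8 vs D0 turned to 0.064. With the protein-coding scaling, D8 vs D4 had 1 higher, and the medians were 0.44 for D2 vs D0, 0.30 for D4 vs D2 and 0.015 for D8 vs D0, the last reversed. Without the filter, D4 vs D2 and D8 vs D0 had 2 higher, D8 vs D4 had 1 higher and D2 vs D0 had 2 lower. The medians over all 10 were then -0.20 for D2 vs D0, 0.33 for D8 vs D4 and 0.12 for D8 vs D0, each reversed by the 3 added genes, and 0.047 for D4 vs D0. With a ratio of 1.5 as the call, D4 vs D2 and D8 vs D0 had 2 higher and D8 vs D4 had 3 higher. At this ratio D2 vs D0, D4 vs D0 and D8 vs D4 had 3 lower and D8 vs D0 had 1 lower. The share of all mRNAs past a ratio of 1.5 is not given here, so these counts cannot be set beside it. The cause of the shifts with scaling was not tested. Signal recognition particle RNA held 12.4%, 17.1%, 12.5% and 16.5% of the fragments at D0, D2, D4 and D8. Counting error was small for 7 subunits and largest for ITGA3, with 18 fragments at D2, but the spread between cultures is unknown.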
